A study of Drosophila melanogaster with 2 samples.

Results

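The 89 genes described here encode nuclear subunits of the 5 complexes of oxidative phosphorylation in Drosophila melanogaster, the mobile carrier cytochrome c, and like-named paralogues of these subunits. They were chosen by gene symbol among 13945 protein-coding genes of the fly, by a rule on symbols that uses no measured value: symbols that start with ND- (complex I), UQCR- (complex III), COX4 to COX8 (complex IV) or ATPsyn (complex V), plus SdhB, SdhC and SdhD (complex II), RFeSP and Cyt-c1 (complex III), levy and cype (complex IV), blw (complex V) and Cyt-c-p. Of these, 68 are called main genes here and 21 are paralogues, whose symbols end in L, L1 or L2 after the name of a subunit. Complex I has 40 of the genes (6 of them paralogues), complex II 3, complex III 11 (3 paralogues), complex IV 18 (8 paralogues) and complex V 16 (4 paralogues), and Cyt-c-p stands alone as the carrier. The measurement was chromatin immunoprecipitation with sequencing (ChIP-seq) of ERR, the fly oestrogen-related receptor, in whole embryos of both sexes aged 0 to 24 h. The embryos came from a transgenic ERR-GFP line that stably expresses ERR with a C-terminal GFP. The description names an anti-GFP antibody for the precipitation, while the antibody field names ERR. Biological replicates 2 and 3 form the only group, so nothing was compared between conditions. In whole embryos, a signal from a few cell types and one from all cells cannot be told apart.

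Oxidative phosphorylation passes electrons from NADH through complex I, or from succinate through complex II, to ubiquinone, then through complex III and cytochrome c to complex IV, where oxygen is reduced. The proton gradient built on the way drives ATP synthesis by complex V. Mammalian oestrogen-related receptors are known as activators of nuclear genes for these complexes, and fly ERR is best known for switching on glycolytic genes in the embryo.

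An ERR peak lay at the promoters of 17 of the 89 genes, which is 19.1% (95% Wilson interval 12.3 to 28.5%, counting error only), against 15.1% of all protein-coding genes. A promoter peak means that the summit of a peak in the deposited optimal set lay within 500 bp of an annotated transcript start. The optimal set held 2892 peaks, and it proved to be made of the pooled regions with the strongest signal. The interval includes the share of all genes, so at this cutoff the count does not separate the list as a whole from all genes. With only the stronger 50% of optimal peaks, 13 of the 89 genes had one, a larger share than that of all genes (1138 of 13945, 8.16%). No interval was computed at that cutoff. In the full optimal set, 16 of 68 main genes had a peak (23.5%, interval 15.03 to 34.9%), and 1 of 21 paralogues did (4.76%, interval 0.846 to 22.7%). By complex, the main genes with a peak were 5 of 10 in complex IV (50%), 4 of 12 in complex V (33.3%) and 6 of 34 in complex I (17.6%). None was found among the 3 genes of complex II or the 11 of complex III in the list. The Wilson intervals were 23.7 to 76.3% for the main genes of complex IV, 13.8 to 60.9% for those of complex V and 8.35 to 33.5% for those of complex I, and they overlap. The upper bounds were 56.2% for the 3 genes of complex II and 32.4% for the 8 main genes of complex III. The carrier gene Cyt-c-p also had a peak. No test between complexes was made, since genes are not replicates of a condition.

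**Figure D1:**
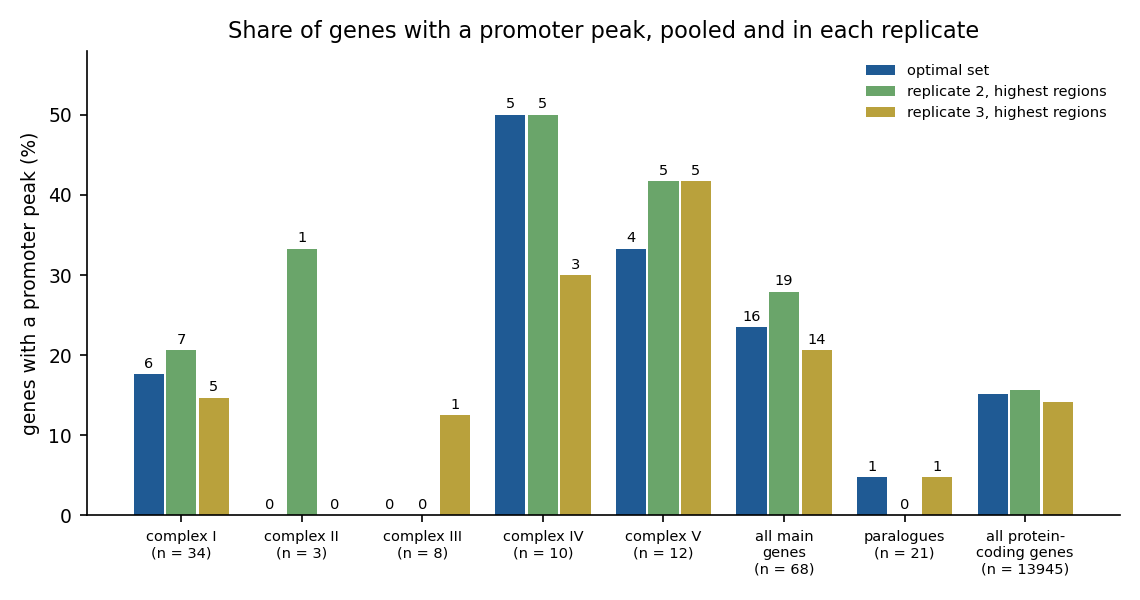
Percentage of genes with a promoter peak in the optimal set and among the strongest 2892 regions of each replicate alone (bars, with gene counts above), for the main genes of each complex, all main genes, the paralogues and all protein-coding genes. In the optimal set the main genes of complex IV stand at 50% and those of complexes II and III at 0%, and complex IV falls to 30% in replicate 3.

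Promoters that differ in what they carry are shown as sequence from the NCBI RefSeq release 6 genome (dm6), each as the coding strand from 200 bases before to 25 bases after the transcript start nearest the summit. They were chosen because they hold a searched motif under or beside a peak, and COX7AL2 because it was the lone paralogue with a peak. ND-20, at chrX:15986784-15987008 (minus strand), was the one member whose promoter held the ERR motif TNAAGGTCA, on the opposite strand and starting at position -161 from the start (capitals).
ND-20: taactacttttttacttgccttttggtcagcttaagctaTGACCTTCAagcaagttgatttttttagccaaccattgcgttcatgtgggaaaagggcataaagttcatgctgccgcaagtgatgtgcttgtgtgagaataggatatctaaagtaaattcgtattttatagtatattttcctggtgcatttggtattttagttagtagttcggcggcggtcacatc
The next 4 promoters hold the motif GGTCACACT of the promoter factor M1BP in capitals: Cyt-c-p at chr2L:16719732-16719956 (plus strand), COX7B at chr3L:17425277-17425501 (plus strand), COX5B at chr2L:6557600-6557824 (plus strand) and ATPsynC at chr3R:31219606-31219830 (minus strand).
Cyt-c-p: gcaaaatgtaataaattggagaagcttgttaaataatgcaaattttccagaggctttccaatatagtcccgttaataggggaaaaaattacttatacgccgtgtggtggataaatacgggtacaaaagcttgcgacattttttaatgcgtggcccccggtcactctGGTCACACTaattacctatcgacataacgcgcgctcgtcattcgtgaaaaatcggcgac
COX7B: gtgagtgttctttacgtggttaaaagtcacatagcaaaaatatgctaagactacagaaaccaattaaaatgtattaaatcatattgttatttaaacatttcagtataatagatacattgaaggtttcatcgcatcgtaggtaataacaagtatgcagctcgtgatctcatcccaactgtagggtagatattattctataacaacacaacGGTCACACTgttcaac
COX5B: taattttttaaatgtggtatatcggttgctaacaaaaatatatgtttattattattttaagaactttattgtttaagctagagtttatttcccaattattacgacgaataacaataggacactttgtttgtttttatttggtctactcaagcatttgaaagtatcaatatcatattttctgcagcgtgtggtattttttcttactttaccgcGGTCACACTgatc
ATPsynC: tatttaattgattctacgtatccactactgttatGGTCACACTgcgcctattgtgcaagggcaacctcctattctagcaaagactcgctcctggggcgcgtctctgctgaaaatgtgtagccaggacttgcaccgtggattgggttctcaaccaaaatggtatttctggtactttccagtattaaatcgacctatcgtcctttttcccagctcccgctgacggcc
The motif starts at position -34 in Cyt-c-p, 9 in COX7B, 12 in COX5B and -166 in ATPsynC. The COX7AL2 promoter, at chr2L:2197888-2198112 (minus strand), held none of the motifs searched and has no capitals.
COX7AL2: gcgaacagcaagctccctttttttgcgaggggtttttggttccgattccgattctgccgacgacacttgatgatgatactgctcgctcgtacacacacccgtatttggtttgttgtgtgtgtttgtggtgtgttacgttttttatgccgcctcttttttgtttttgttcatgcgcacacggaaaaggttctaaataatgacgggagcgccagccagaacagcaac

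Complex I oxidises NADH and had peaks at genes for both its catalytic and its accessory subunits. The signals are the peak caller's values, which run from 69.2 to 3946 in the optimal set with a median of 97.8, and they are not scaled between lists. At ND-51, the subunit that binds NADH and flavin, the signal was 161 in the pooled list, 97.2 in replicate 2 and 67.4 in replicate 3. At ND-24, its iron-sulphur partner, the values were 96.5, 64.7 and 34.1, in the same order. At ND-20, which hands electrons on towards ubiquinone and whose motif is shown above, they were 184, 117 and 68.6. These 3 genes were the core subunits with a peak, and all 3 were also among the 2892 strongest regions of each replicate taken alone. The peak regions were chr2L:6062693-6063096 between genes for ND-51, chrX:17632038-17632441 in an intron of ND-24 and chrX:15986785-15987013 between genes for ND-20.

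Accessory subunits of complex I, which surround the catalytic core, gave the strongest member signal of all and most of the weak ones. ND-ASHI, of the membrane arm, had the highest signal of the 89 genes, at 242 in the pooled list, 152 in replicate 2 and 93.2 in replicate 3. Its peak at chrX:6679257-6679499 lay in an intron of Fum1, which encodes a fumarase of the citric acid cycle, with a start of Fum1 also within 500 bp. ND-MWFE, another membrane-arm subunit, had signals of 172, 107 and 66.4 at chr2R:13158323-13158726, in an intron of TppII. ND-42 had signals of 97.8, 68.0 and 30.2 at chr3R:22027189-22027592, in the 5' UTR of Cchl, which encodes cytochrome c haem lyase. ND-42 ranked 1034th in replicate 2 and 3367th in replicate 3, so it was a top region in replicate 2 alone. In all, 3 of 7 core genes had a peak (42.9%, interval 15.8 to 74.95%) and 3 of 27 accessory genes did (11.1%, interval 3.85 to 28.1%). The share of all genes was 15.1%, inside the accessory interval and just below the core one. The intervals overlap, and this division, like that into modules, was made after the values were seen. The median pooled signal was 78.1 over the 6 core genes with a region and 38.7 over the 23 accessory genes with one. Over all genes with a region it was 44.6. Of the core genes without a peak, ND-49 stood at 59.6, ND-30 at 36.2 and ND-75, the large iron-sulphur subunit, at 31.0, while ND-23 had no pooled region. By structural module, peaks lay at 2 of 8 genes of the NADH-binding N module (25%, interval 7.15 to 59.1%). They lay at 1 of 7 of the ubiquinone-binding Q module (14.3%, interval 2.57 to 51.3%). In the proton-pumping P module it was 3 of 17 (17.6%, interval 6.19 to 41.0%). Each of these module intervals includes the 15.1% of all genes. The highest main genes without a peak were ND-15 at 60.6 and ND-49 at 59.6. The ND-49 summit lay in coding sequence, 494 bp downstream of the nearest start, and the window reaching 100 bp to either side of it held the ERR motif. The main genes ND-13A, ND-B14.7, ND-MLRQ, ND-AGGG and ND-23 had no pooled region.

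**Figure D2:**
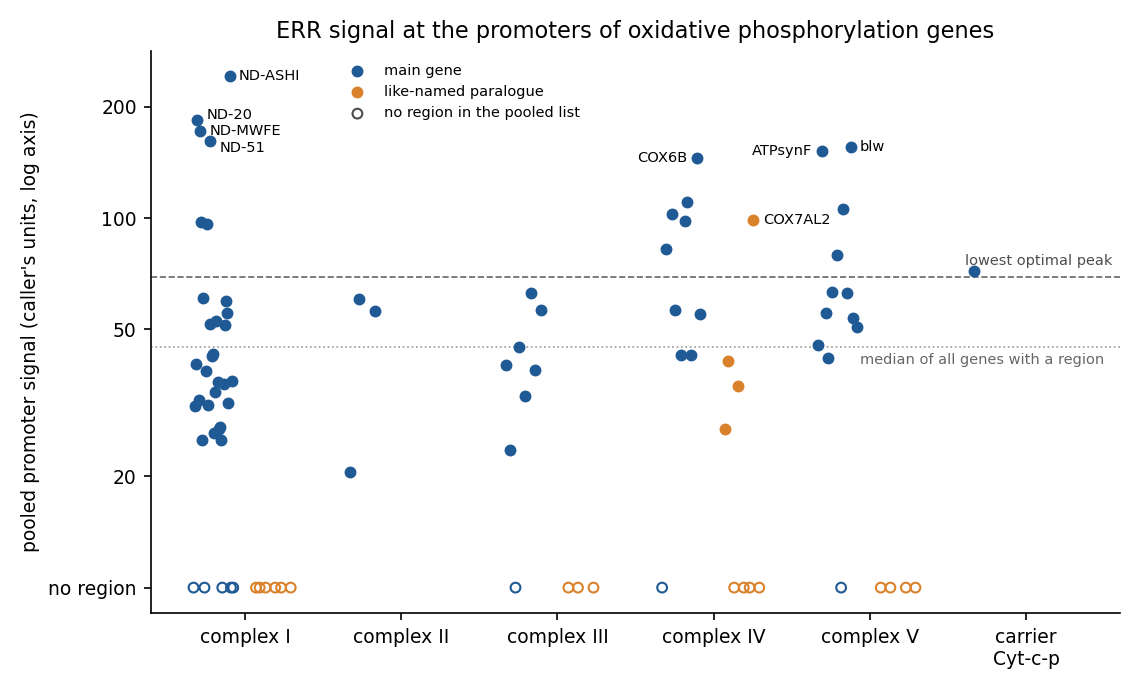
Pooled promoter signal of each gene in the peak caller's units (log axis), by complex, with main genes and paralogues in different colours and genes without a region as open circles. Complex I spans from 25.03 to 242, while no listed gene of complexes II and III passes 62.7, below the lowest optimal peak at 69.2.

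Complex II, succinate dehydrogenase, joins the citric acid cycle to the chain, and all 3 of its genes in the list had a pooled region without an optimal peak. SdhD, a membrane anchor, had signals of 60.5 in the pooled list, 41.0 in replicate 2 and 15.9 in replicate 3. SdhC, the other membrane anchor, had 56.1, 47.0 and 17.97, and was among the strongest 2892 regions of replicate 2 only. SdhB, the iron-sulphur subunit, had 20.5, 11.1 and 11.0. SdhD and SdhC ranked 2909th and 2216th in replicate 2 against 12109th and 9568th in replicate 3, so both stood higher in replicate 2. SdhB was low in all 3 lists. SdhA, the flavin-binding subunit, was outside the gene list and had a pooled signal of 32.0.

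Complex III passes electrons from ubiquinol to cytochrome c, and it had no optimal peak at any of its 11 genes in the list. A further small subunit, ox, is outside the symbol rule and did have one. Its signals were 85.8 in the pooled list, 47.5 in replicate 2 and 38.3 in replicate 3. RFeSP, the Rieske iron-sulphur protein, came nearest, with signals of 62.7 in the pooled list, 30.4 in replicate 2 and 35.9 in replicate 3. It was among the strongest 2892 regions of replicate 3, at rank 2321, and ranked 5044th in replicate 2. UQCR-14 followed with 56.2, 35.1 and 20.7, and Cyt-c1, the haem-bearing subunit, had 40.1, 29.1 and 17.5. The core subunits UQCR-C2 and UQCR-C1 were lower in the pooled list, at 38.8 and 23.6. UQCR-11 and the 3 paralogues UQCR-11L, UQCR-6.4L and UQCR-14L had no pooled region. The median over the 7 genes with a region was 40.1, against 44.6 over the 7811 of all genes with one.

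Cyt-c-p encodes the cytochrome c that shuttles between complexes III and IV in body tissues, and its peak was the weakest among the 17. Its signals were 71.9 in the pooled list, 48.6 in replicate 2 and 26.4 in replicate 3, at chr2L:16719563-16719966 between genes. It ranked 2053rd in replicate 2 and 4413th in replicate 3. ATPsynE at 79.3 and COX7B at 82.3 were the next genes above the lowest optimal signal of 69.2, and ATPsynO, ATPsynG and RFeSP, at 63.0, 62.7 and 62.7, were the nearest below it.

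Complex IV, cytochrome c oxidase, reduces oxygen, and its nuclear main genes had the highest share of peaks among the complexes in the optimal set, with the overlapping intervals given above. This order did not hold in replicate 3 alone, where complex IV stood at 30% and complex V at 41.7%. It did not hold for peaks near no other gene's start either, of which complex IV main genes had 0 of 10 and complex V main genes 2 of 12. The catalytic subunits are encoded by mitochondrial DNA and are not in the list. COX6B, on the side that faces cytochrome c, had signals of 146 in the pooled list, 93.4 in replicate 2 and 46.8 in replicate 3. COX5A had 111, 54.9 and 60.2, and levy, the fly subunit VIa, had 98.4, 59.7 and 46.7. These 3 were among the strongest 2892 regions of both replicates. COX5B, whose promoter is printed above, had 102, 73.5 and 27.8. COX7B had 82.3, 54.7 and 25.6. COX5B ranked 896th in replicate 2 and 4007th in replicate 3, and COX7B ranked 1632nd and 4714th, so both were top regions in replicate 2 alone.

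The complex IV peaks were chrX:19744160-19744563 between genes for COX6B, chr3R:11819324-11819727 in an intron of COX5A and chr2L:6557306-6557709 between genes for COX5B. They were chr2R:23547975-23548122 in the 5' UTR of wmd for levy and chr3L:17425071-17425474 between genes for COX7B. The median pooled signal of the 9 main genes with a region was 82.3, which is 1.84 times the median of all genes with a region. In replicate 2 alone that ratio was 1.68, over 10 main genes with a region, and in replicate 3 it was 1.29, over 9. COX8 at 56.6 and cype, the fly subunit VIc, at 54.8 were the highest main genes without a peak. COX4 had no pooled region and a signal of 10.7 in replicate 2 only.

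Complex V is the ATP synthase, a rotary enzyme with a catalytic F1 head, a peripheral stalk and a membrane sector. ATPsynF, of the membrane sector, had signals of 152 in the pooled list, 101 in replicate 2 and 51.2 in replicate 3. ATPsynC, which encodes the proton-carrying ring subunit, had 106, 89.1 and 39.9. ATPsynE, a small membrane subunit, had 79.3, 43.8 and 38.2. The fourth membrane subunit of the list, ATPsynG, had 62.7, 38.6 and 11.2 and no peak. So 3 of 4 membrane-sector genes had one (75%, interval 30.1 to 95.4%), against 15.1% of all genes. This division was made after the values were seen. In the F1 head, blw, the alpha subunit, had 156, 83.5 and 72.3. ATPsyngamma at 55.4 and ATPsynbeta, the catalytic partner of blw, at 50.8 had a pooled region without a peak, and ATPsyndelta had no pooled region and 9.32 in replicate 3 only. None of the 4 peripheral stalk genes had a peak (interval 0 to 48.99%). Of them ATPsynO, which joins the stalk to the head, was the highest at 63.0. All 4 complex V peaks were among the strongest 2892 regions of both replicates. They were chr2R:24599679-24600082, chr3R:31219433-31219836 and chr2R:22798932-22799122, all between genes, for ATPsynF, ATPsynC and blw, and chr3R:14326817-14327220 in the 5' UTR of ATPsynE. The median over the main genes with a region was 1.41 times that of all genes in the pooled list (11 genes). It was 1.43 times in replicate 2 (11 genes) and 1.22 times in replicate 3 (12 genes).

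Most main genes had at least a weak region, and most paralogues had none. Any region of the pooled list, out of 30000, lay at 64 of the 89 promoters (71.9%) against 56% of all genes. This was so for 60 of 68 main genes (88.2%) and 4 of 21 paralogues (19.0%). In no list at all were 3 main genes, ND-13A, ND-MLRQ and ND-AGGG, and 14 paralogues (66.7%), against 35.5% of all genes. Over the genes with a region, the median pooled signal was 52.1 for the main genes and 44.6 for all genes, with quartiles of 36.2 and 73.7 for the former and 29.0 and 72.1 for the latter. The quartile ranges overlap over most of their length.

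Of the 21 paralogues, which are copies named after a subunit, 20 could be set beside a main gene in the list. The main gene was the higher of the pair for 17 of the 20 in the pooled list, 17 in replicate 2 and 17 in replicate 3. The 20 paralogues share 17 main genes, so the pairs are not all separate. The paralogue was the higher in the pooled list for COX7AL2 and COX4L. COX7AL2 had signals of 99.0 in the pooled list, 38.0 in replicate 2 and 54.8 in replicate 3, against 42.7, 29.3 and 13.6 for COX7A. Its region, chr2L:2197675-2198078, lay in its own 5' UTR. It ranked 3359th in replicate 2 and 920th in replicate 3, so it was a top region in replicate 3 alone. COX4L had 26.8, 10.4 and 13.2. The floor is 16.8 for the pooled list, 10.2 for replicate 2 and 9.26 for replicate 3. Out of 30000 regions, COX4L ranked 14910th in the pooled list, 29515th in replicate 2 and 17223rd in replicate 3. Its value was thus near the floor in replicate 2.

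Some paralogues lie close to their main gene on the chromosome. COX5BL, with a start 1631 bp from that of COX5B, had no pooled region and 12.8 in replicate 2 only, against 102 for COX5B in the pooled list. COX7CL, 867 bp from COX7C, had 35.0 in the pooled list against 42.6. COX7AL, 2626 bp from COX7A, had 41.0 against 42.7. The order of the last 2 pairs was not stable: COX7AL had 15.6 against 29.3 in replicate 2 and 25.7 against 13.6 in replicate 3, and COX7CL had 17.7 against 15.2 and 17.4 against 27.5. UQCR-11L had no region in any list, and UQCR-11 had one only in replicate 3, at 17.8.

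The remaining paralogues had no pooled region. In complex I, ND-20L, ND-24L, ND-49L, ND-51L2 and ND-B14.5AL were in no list, while ND-51L1 had 12.8 in replicate 2. Their main genes stood at 184 for ND-20, 96.5 for ND-24, 59.6 for ND-49, 161 for ND-51 and 35.4 for ND-B14.5A. In complex III, UQCR-14L was in no list and UQCR-6.4L had 10.9 in replicate 3, against pooled signals of 56.2 for UQCR-14 and 33.0 for UQCR-6.4. In complex IV, COX6AL, COX6AL2 and COX6CL were in no list, against 98.4 for levy and 54.8 for cype. In complex V, ATPsynGL, ATPsynbetaL, ATPsynCF6L and ATPsynepsilonL were in no list. Their main genes stood at 62.7 for ATPsynG, 50.8 for ATPsynbeta and 41.9 for ATPsynCF6, and sun, the gene for subunit epsilon, which is outside the list, stood at 27.5.

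**Figure D3:**
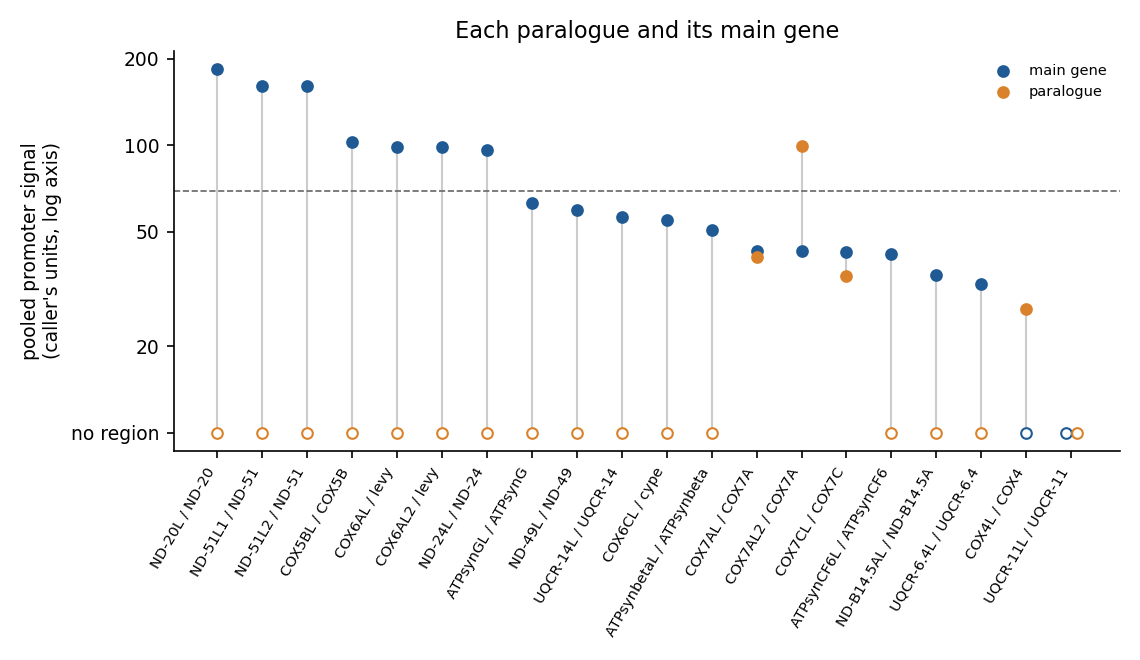
Pooled promoter signal in the peak caller's units (log axis) of each of 20 paralogues and its main gene, joined by a line, with open circles for genes without a region and a dashed line at the lowest optimal signal. The main gene is the higher in 17 pairs, and COX7AL2 is the only paralogue above the dashed line.

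Many of the peaks are shared with another gene. A start of another protein-coding gene lay within 500 bp of the summit for 12 of the 17 peaks (70.6%), against 51.5% of all 2105 genes with a peak. The unshared peaks were those of ND-20, blw, ATPsynC, Cyt-c-p and COX7AL2, which are 5.62% of the 89 genes, while 7.31% of all genes had an unshared peak. The shared partners were Fum1 (ND-ASHI), TppII (ND-MWFE), CG13994 (ND-51), Cchl (ND-42), corolla (ND-24), glo (COX5A), IFT52 (COX5B), wmd (levy), Sec3 (COX7B), CG3548 (ATPsynF) and Afti (ATPsynE), and COX6B lay near CG18809, CG33932 and Rpp20. Another start within 500 bp of their own was found for 39 of 68 main genes (57.4%), 3 of 21 paralogues (14.3%) and 30.9% of all genes. Among genes with such a neighbour, 12 of 39 main genes had a peak (30.8%) against 27.1% of all genes. Among genes without one, 4 of 29 main genes did (13.8%) against 9.73% of all genes. In replicate 2 alone the shares were 35.9% against 28.6% with a neighbour and 5 of 29 main genes against 9.89% without. In replicate 3 alone they were 23.1% against 25.3% with a neighbour and again 5 of 29 against 9.23% without. The part that close neighbours play in the count of member peaks was not tested further.

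Most optimal summits lay upstream of the nearest annotated start of the member. Of the 17 summits, 16 did so (94.1%), at a median of 96 bp, against 79.7% of all genes with a peak. Upstream refers here to the nearest start only, where a gene has several. The summits of ND-24, COX5A and ATPsynE lay inside the member gene, downstream of its first start and upstream of a later one. The positions ran from 318 bp upstream at ND-42 to 35 bp downstream at COX7AL2. The 47 genes with a pooled region and no peak differed in this: 19 summits lay upstream (40.4%, against 57.0% of all such genes), and 11 lay in coding sequence (23.4%, against 17%). None of the 17 optimal summits lay in coding sequence, against 1.09% of all genes with a peak.

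**Figure D4:**
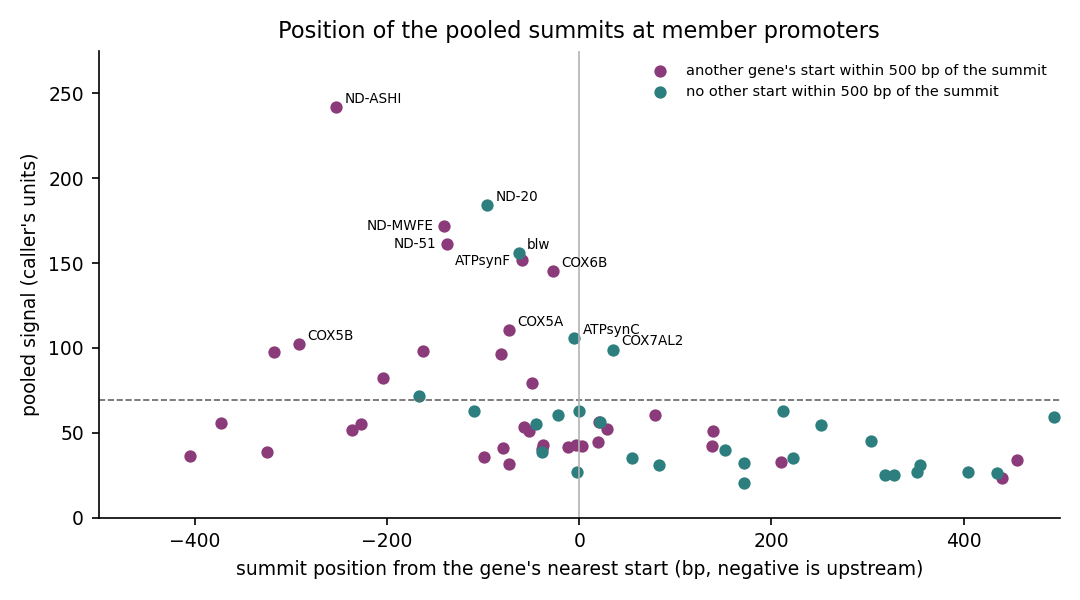
Pooled signal (peak caller's units) against the position of the summit from the nearest start in bp, negative upstream, for the 64 genes with a pooled region, coloured by whether another gene's start lies within 500 bp. The summits above the dashed line, the lowest optimal signal, lie between -318 and 35.

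The ERR motif was rare at the members. TNAAGGTCA, searched on both strands of the 300 bases from 250 before to 50 after the start of the longest transcript, was found at 1 of 89 promoters, that of ND-20, against 0.638% of all promoters. Its shorter core AAGGTCA was likewise at ND-20 alone (1.12% against 2.09%). Within 100 bp of the optimal summits, TNAAGGTCA was at 1 of the 17 member peaks, again at ND-20. It was at 0.998% of all genes with a promoter peak and at 1.63% of all 2892 peaks. The M1BP motif GGTCACACT, whose first letters GGTCA are the last letters of the ERR motif, was at 18 of 89 member promoters (20.2%) against 6.06% of all. It was at 6 of the 17 promoters with a peak (35.3%, against 9.22% of all genes with a peak), namely ATPsynC, COX5A, COX5B, COX7B, Cyt-c-p and ND-MWFE. Within 100 bp of the 17 summits it was at none, so in each of these 6 it lay farther from the summit. The share was 5.42% of all genes with a promoter peak, and 2.84% of all peaks, including those away from starts. Of the 47 weaker regions, 7 held it in their summit window (14.9%, against 5.06%). The motif TATCGATA of the promoter factor DREF was at 10 member promoters (11.2% against 9.32%), among them levy with a peak, and the E-box CACGTG was at 4 (4.49% against 4.20%). Among the paralogue promoters, M1BP was found at COX7AL, the E-box at ATPsynepsilonL and UQCR-6.4L, and DREF and ERR motifs at none. In the summit windows of the 47 weaker regions, the core AAGGTCA was at 2 (4.26%, against 1.82%). These were the regions of ND-49 and of the paralogue COX7CL. Median GC content of the promoters was 34.7% for the members and 38.0% for all genes.

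The replicates differed in which genes were among their strongest regions. Taking the 2892 strongest regions of replicate 2 alone, 19 of the 89 genes had a promoter peak (21.3%) against 15.7% of all genes. In replicate 3 alone it was 15 (16.9%) against 14.2%. By complex the counts in replicate 2 were 7 in complex I, 1 in II, 0 in III, 5 in IV and 5 in V. In replicate 3 they were 5, 0, 1, 4 and 5, in the same order. Genes in both numbered 12, or 13.5% against 10.8% of all genes, and all 12 were among the 17 with an optimal peak. The others of the 17 were top regions in 1 replicate: ND-42, COX5B, COX7B and Cyt-c-p in replicate 2 and COX7AL2 in replicate 3. This split was close to that of all genes with a peak: 70.6% against 70.5% in both, 23.5% against 18.9% in replicate 2 only and 5.88% against 8.65% in replicate 3 only. The genes that were top regions in 1 replicate without an optimal peak were ND-15, SdhC and ATPsynO in replicate 2 and RFeSP and ATPsynB in replicate 3. Over the 62 genes with a region in both lists Spearman's rho was 0.593, against 0.708 over 6506 genes. This is a description over genes of shared libraries. The signal was higher in replicate 2 for 47 of the 62 (75.8%, against 74.1% of all genes), with a median ratio of 1.46 against 1.30 for all genes. The depth of the libraries is unknown, and its part in this ratio was not tested.

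**Figure D5:**
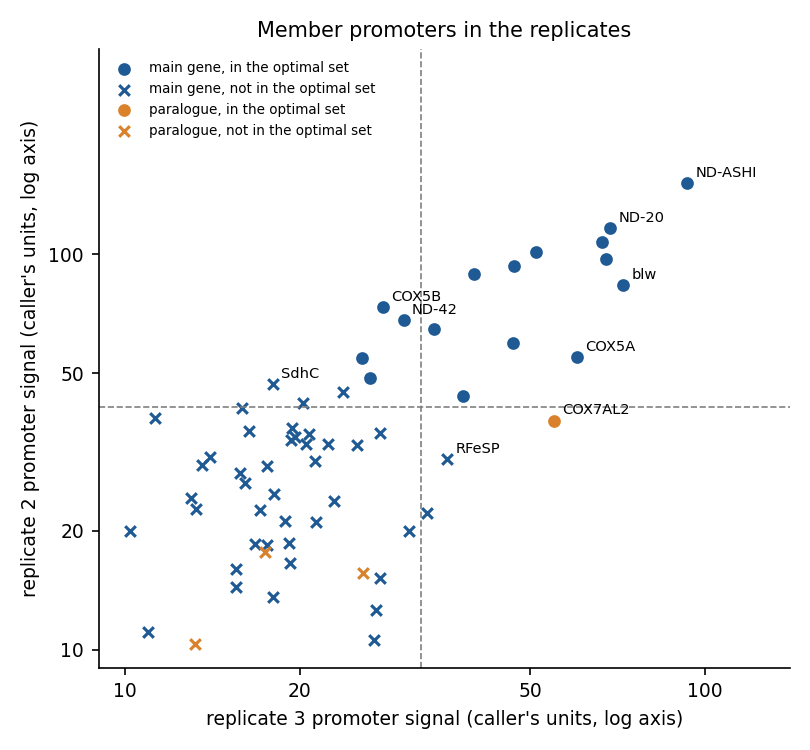
Promoter signal in replicate 2 against replicate 3 for the 62 genes with a region in both lists, in the peak caller's units on log axes, with optimal peaks marked. The genes above the lowest top signal of both replicates (41.1 in replicate 2 and 32.4 in replicate 3) all have an optimal peak.

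Other genes of the pathway were taken from a list of 33 symbols, of which 25 matched a gene. Every unmatched symbol was that of an assembly factor, so the share of assembly factors rests on part of their list. Among subunits and carriers outside the symbol rule, 2 of 8 had an optimal peak (25%, interval 7.15 to 59.1%). They were Cyt-c-d, the testis cytochrome c, at 145 and ox, a small complex III subunit, at 85.8. The Cyt-c-d peak was shared with CG31808 and the ox peak with Dgkepsilon. Among assembly factors, 3 of 8 had one (37.5%, interval 13.7 to 69.4%). CIA30, an assembly factor of complex I, had signals of 479 in the pooled list, 266 in replicate 2 and 211 in replicate 3, higher than any of the 89 genes in each list, and its peak was shared with CG7601. Ttc19, which acts on complex III, had 131, 71.5 and 61.0, with a start of Acn nearby. The assembly factor gene l(2)k14505 had 71.7, 48.6 and 23.4. Of 9 genes listed together as regulators of mitochondrial genes, 2 had a peak (22.2%, interval 6.32 to 54.7%), and neither is a transcription regulator. Of these, mtSSB, which binds single-stranded mitochondrial DNA, stood at 111, and Alas, the first enzyme of haem synthesis, at 91.0. The intervals of all 3 groups include the 15.1% of all genes. The fly PGC-1 homologue srl stood at 67.8, just under the lowest optimal signal, TFAM, which packages mitochondrial DNA, at 43.5, and Scox and mtTFB2 were in no list.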

How the data were processed

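ERR-GFP ChIP-seq was measured in 2 replicates of 1 group. The authors deposited region lists in narrowPeak layout on dm6: 30000 regions per replicate, 30000 from the pooled replicates, and an optimal set of 2892 peaks chosen by the irreproducible discovery rate, a measure of rank stability between replicates. The parentage of the lists is per the notes deposited with the files. The deposited signal values came from the peak caller and were used unchanged. For the aligner, the caller, their versions and the nature of 1 further source file, the sources used here give nothing. The lists on dm3 and the possible control named in the labels were not used here. Depth is unknown, as the lists hold no read counts.

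Gene models came from Ensembl release 115 and sequence from the NCBI RefSeq release 6 genome. Each gene took the highest signal with a summit within 500 bp of any start. The top of a replicate was its 2892 strongest regions. Wilson intervals (95%) on shares cover counting error only. No statistical test was made, as there is 1 group. Motifs were exact matches on both strands.

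Named genes are all members with an optimal peak, the 2 highest main genes without one per complex, each paralogue with its main gene, and members without a pooled region where a complex has 5 or fewer. Other names were added after their values were seen, as was the division into core genes, accessory genes and modules. The members and lists were chosen with earlier results of these data known. Python 3.11.15, pandas 2.3.3, numpy 2.4.6, scipy 1.17.1 and matplotlib 3.10.9 were used, and the scripts were tested on simulated data. Alternatives were the stronger 50% of optimal peaks, each replicate alone, promoters of 200 or 1000 bp, region overlap, the start of the longest transcript, peaks near no gene outside the list, and motifs within 100 bases of the start. The split by neighbouring starts was added after seeing the data.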

Additional observations from a re-analysis of the deposited data

How the results depend on the processing

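The count of member peaks was 13 of 89 with the stronger 50% of optimal peaks, against 1138 of 13945 for all genes (8.16%). With promoters of 200 bp it was also 13 of 89, against 1591 of 13945 (11.4%). It was 17 of 89 (19.1%) with promoters of 1000 bp (17.5% of all genes), region overlap (16.1%) and the longest transcript (13.4%). Leaving out peaks near any gene outside the list left 5 members (5.62%), while 7.31% of all genes had an unshared peak. By this count the members did not stand above all genes. Of the 5, 4 were main genes: 1 in complex I, 2 in V and the carrier. The 1 in complex IV was the paralogue COX7AL2. This count depends on gene spacing, since 47.2% of members and 30.9% of all genes have another start within 500 bp. Among genes without such a neighbour, 10.6% of 47 members had a peak, against 9.73% of all genes. Using 1 replicate alone (without replicate 3 or without replicate 2) gave 0 to 1 for the paralogues, complex II and complex III. Of the recomputed peak counts, 56 stayed within 1.5 times the count reported, and 8 did not.

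Median signals for 1 replicate alone are on other scales: 20.4 to 30.2 for all members, 20.5 to 31.8 for main genes, 14.2 to 17.4 for paralogues, 19.3 to 28.0 for complex I, 15.9 to 41.0 for II, 17.6 to 26.4 for III, 25.7 to 34.6 for IV and 26.04 to 38.6 for V. The paralogue median of 38.0 became 70.0 with 200 bp (2 genes), 33.0 with 1000 bp and 34.0 with region overlap. With motifs sought within 100 bases of the start, the E-box count went from 4 to 1 and the ERR counts from 1 to 0. No paired analysis was possible because there is only 1 group.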
